A study of Mus musculus with 35 samples.

Results

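The comparison covered all 485 miRNAs in the deposited small RNA table and set 3 libraries labelled mWAT against 3 labelled iWAT. No measured value entered the choice of these 485 miRNAs. The comparison itself and the lists of miRNAs used below were chosen with earlier results of these data known. Of the 485, 436 passed a filter on low read numbers and were tested, and the other 49 were not. The 6 libraries are part of 18 miRNA libraries and of 35 samples in all.

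The study profiled mouse fat depots, with 3 miRNA libraries each from the depots labelled mWAT, iWAT, eWAT, aWAT, cWAT and iBAT, beside mRNA and Argonaute-bound RNA that were not analysed here. Both groups compared came from untreated male C57BL/6 mice (C57BL/6J in the protocol) of 13 weeks, with no transgene or deletion named. The mWAT group was whole mWAT pads, and the iWAT group was whole iWAT pads of the same strain, sex and age. In the fat field mWAT usually stands for mesenteric white fat, which lies along the gut, and iWAT for inguinal white fat, which lies under the skin, but the labels do not spell the names out. The protocol also mentions inguinal pads of mice kept at 4 °C for 1 week without saying which label holds them, so housing and depot cannot be told apart where a label holds such mice. No label says that the 3 libraries of a depot came from separate or pooled animals. The p-values thus measure only the spread between libraries of a depot, estimated over all 18 libraries of the 6 depots.

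A miRNA is a short RNA cut from 1 arm (5p or 3p) of a hairpin precursor, and it guides Argonaute proteins to mRNAs that pair with its seed, bases 2 to 8, which lowers the output of those mRNAs. Many miRNA genes lie in clusters that are transcribed together, and some are known as marks of body position (the Hox clusters), of imprinted control (the Dlk1-Dio3 region) or of a cell type (miR-143 and miR-145 in smooth muscle, miR-142 in blood cells). In fat tissue miRNAs are known to act on adipocyte formation, on the brown fat programme and on insulin response.

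The sequences below are those the results turn on, taken from RefSeq (GRCm38.p6), in which 426 of the 485 names matched and 383 of the 436 tested. They are written 5′ to 3′ with the seed in capitals. The first set is from the Hox clusters, where 1 member of each pair that shares a seed passed the test and the other did not (the difference within a pair was not tested).
miR-10b-5p: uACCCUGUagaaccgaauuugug
miR-10a-5p: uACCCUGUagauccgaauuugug
miR-196a-5p: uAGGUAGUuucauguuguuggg
miR-196b-5p: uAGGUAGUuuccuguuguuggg
miR-10b-5p and miR-10a-5p differ by 1 base, A12U, and miR-196a-5p and miR-196b-5p by 1 base, A12C (the base of the first-named miRNA, the position from 1 at the 5′ end, then the base of the other). Reads of either pair are told apart by that base alone. miR-10b lies at chr2:74726074-74726096 on the plus strand, miR-10a at chr11:96317186-96317208 on the plus strand and miR-196b at chr6:52230129-52230150 on the minus strand. The same mature miR-196a-5p comes from 2 hairpins, at chr11:96265187-96265208 on the plus strand and on chromosome 15.

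The next set is from the Dlk1-Dio3 region of chromosome 12, shown because these 7 were higher in mWAT.
miR-127-3p: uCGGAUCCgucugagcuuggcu
miR-136-3p: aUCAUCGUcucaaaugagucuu
miR-381-3p: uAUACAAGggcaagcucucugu
miR-300-3p: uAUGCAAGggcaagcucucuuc
miR-411-5p: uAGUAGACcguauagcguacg
miR-379-5p: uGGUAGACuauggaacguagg
miR-541-5p: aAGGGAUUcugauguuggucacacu

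The third set is from an X-linked cluster, with members of the miR-15 and miR-16 family that share the seed of miR-322-5p. The 3 printed miRNAs with the family seed and miR-503-5p, whose seed differs from it in its last base, were lower in mWAT, while miR-542-3p, from the same cluster, was higher.
miR-542-3p: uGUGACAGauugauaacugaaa
miR-503-5p: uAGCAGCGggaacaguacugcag
miR-322-5p: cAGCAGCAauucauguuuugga
miR-16-5p: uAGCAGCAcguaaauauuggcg
miR-15b-5p: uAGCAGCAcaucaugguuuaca

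The last set holds single miRNAs described below from fat, immune cells, nerve and gut epithelium.
miR-193b-3p: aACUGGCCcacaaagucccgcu
miR-27b-3p: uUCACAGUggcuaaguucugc
miR-146a-5p: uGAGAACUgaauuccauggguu
miR-146b-5p: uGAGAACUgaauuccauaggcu
miR-9-5p: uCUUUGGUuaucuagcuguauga
miR-192-5p: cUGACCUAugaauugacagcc
miR-215-5p: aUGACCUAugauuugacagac
miR-146a-5p and miR-146b-5p share a seed and differ by 2 bases (G18A and U21C), and miR-192-5p and miR-215-5p share a seed and differ by 3.

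The libraries held 2817527, 1943300 and 2871504 miRNA reads in mWAT and 3776278, 1887790 and 2245145 in iWAT, within the 1293407 to 6816555 of all 18. Values are normalized counts, the reads of a library divided by its size factor. By correlation mWAT 2 stood apart from its group before any test, and iWAT 3 did so only slightly. mWAT 2 correlated with mWAT 1 and mWAT 3 at r = 0.958 and 0.956 across the tested miRNAs (which are not replicates), against 0.986 between mWAT 1 and mWAT 3. iWAT 3 correlated with iWAT 1 and iWAT 2 at 0.968 and 0.967, against 0.974 between iWAT 1 and iWAT 2. Between mWAT and iWAT libraries r ran from 0.920 to 0.959, so it reached the values of mWAT 2 with its own group. mWAT 2 carried the miRNAs of gut epithelium. miR-192-5p, of intestine and liver, had 1509, 17665 and 1683 normalized counts in mWAT 1 to 3, against 1774, 1819.6 and 1586 in iWAT 1 to 3, and miR-215-5p, of the same seed, had 12.8, 2147 and 5.4 in mWAT, against 29.6, 27.1 and 17.1 in iWAT. miR-375-3p, known from pancreatic islets and gut endocrine cells, had 0, 584 and 6.48 in mWAT, against 0, 0 and 4.28 in iWAT. In these 3 miRNAs mWAT 2 alone was high, and for miR-215-5p the other mWAT libraries lay below all 3 iWAT libraries. The 12 gut epithelium miRNAs of the table summed to 2045 to 27246 normalized counts over mWAT libraries and to 1997 to 5841 over iWAT libraries, and 0 of the 10 tested passed in either direction by limma or at an unadjusted p under 0.05 (median log2 difference 1.12 with mWAT 2 and -0.13 without it). On the recovered reads edgeR called 3 higher, DESeq2 1 and voom 0, and limma called 1 lower without mWAT 2 and 1 higher without iWAT 3.

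iWAT 3 carried epithelial miRNAs as well, and its gut epithelium sum was 5841, against 1997 and 2105 in iWAT 1 and 2. miR-205-5p, a marker of stratified epithelium such as skin and gland ducts, had 4.92, 76.9 and 13 in mWAT, against 7.75, 5.17 and 417 in iWAT, and miR-200a-3p, of epithelium in general, had 243, 2393 and 171 in mWAT, against 25.4, 51.7 and 1521 in iWAT. Both miRNAs were thus high in 1 library of each group, and miR-200a-3p is among the gut epithelium miRNAs summed above. Skeletal muscle miRNAs varied from library to library as well. miR-1a-3p had 2809, 3859 and 4149 in mWAT, against 16537, 378 and 2907 in iWAT, and 0 of 9 tested muscle miRNAs passed in either direction by limma, at an unadjusted p under 0.05, by edgeR, by DESeq2 or by voom. Counts are therefore also given without mWAT 2 and iWAT 3.

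**Figure D1:**
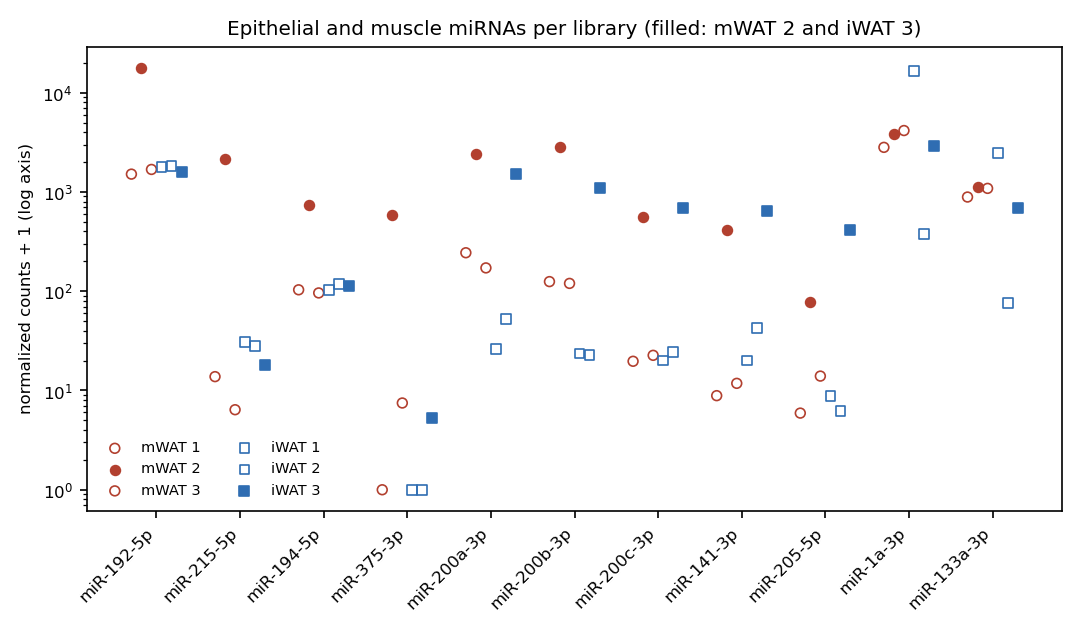
Normalized counts + 1 (log axis) of epithelial and muscle miRNAs in each of the 6 libraries, with mWAT as circles left of iWAT as squares and with mWAT 2 and iWAT 3 filled. mWAT 2 stands above every other library for miR-192-5p, miR-215-5p, miR-194-5p and miR-375-3p, iWAT 3 leads for miR-205-5p, and iWAT 1 leads for miR-1a-3p.

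The miRNA content of mWAT differed broadly from that of iWAT. Of the 436 tested miRNAs 144 passed (33%; limma with Benjamini-Hochberg adjustment, adjusted p under 0.05), and these are the miRNAs referred to as called, higher or lower, with 77 of them higher in mWAT (17.7%) and 67 lower (15.4%). Numbers with ± in parentheses are log2 differences with their SE from that fit (n = 3 each). The difference was at least 2-fold in 44 of the higher and 18 of the lower. In 75 of the higher and 64 of the lower the 3 mWAT and 3 iWAT values did not overlap, which held for 47.7% of all tested miRNAs whatever their p. The median log2 difference over all tested miRNAs was -0.0027. Without mWAT 2 and iWAT 3 the counts were 57 higher and 44 lower, and 93 of the 144 kept their call and sign. Without iWAT 2 alone, 44 were lower. Scaling each library to its total moved the median to -0.23 and the counts to 54 higher and 108 lower. In whole tissue, fewer cells of a type and less RNA per cell cannot be told apart.

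**Figure D2:**
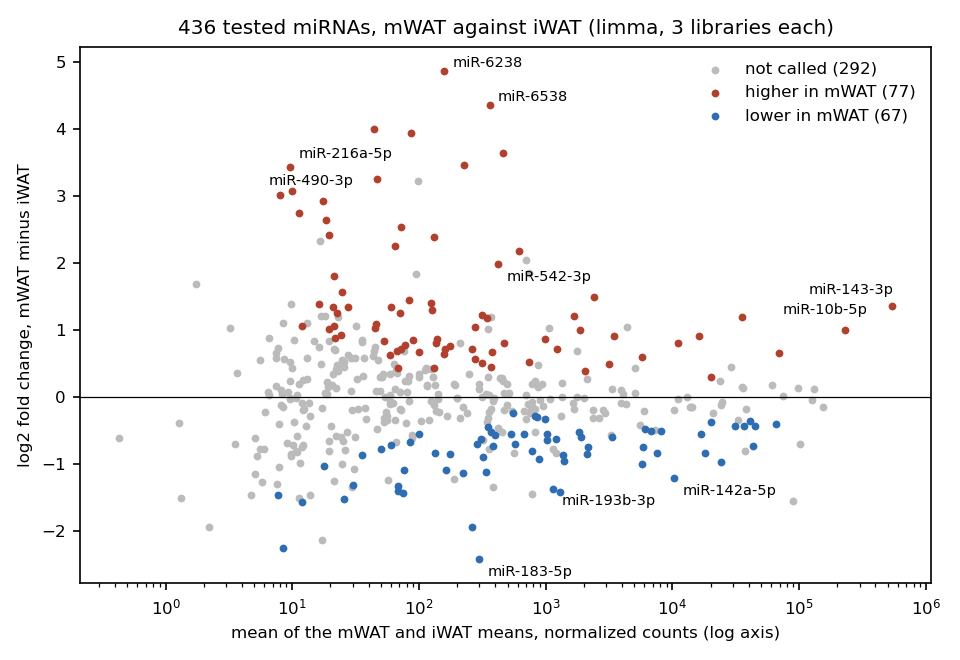
Log2 fold change of mWAT over iWAT against mean level (normalized counts, log axis) for the 436 tested miRNAs, 1 point each, coloured by call. The 77 called higher reach larger differences than the 67 called lower, mostly at levels under 1000, while miR-143-3p and miR-10b-5p are the called points at the highest levels.

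miR-143 and miR-145a, made from 1 precursor and best known from smooth muscle and stromal cells, were higher in mWAT on both arms. miR-143-3p was the most abundant miRNA in each of the 6 libraries, with 669281, 743128 and 933846 normalized counts in mWAT 1 to 3, against 340885, 293133 and 274623 in iWAT 1 to 3. The lowest mWAT library lay well above the highest iWAT library. Its mean was 2.58-fold that of iWAT (log2 difference 1.36 ± 0.12, SE, n = 3 each; limma adjusted p = 7.43e-06), and it took 26.5% ± 3.2 of mWAT libraries against 12.1% ± 0.69 of iWAT libraries (SD, n = 3 each). In the other depots miR-143-3p averaged 347590.4 ± 40265 in eWAT, 294479 ± 3099 in aWAT, 310896 ± 24125 in cWAT and 224145 ± 9478 in iBAT (SD, n = 3 each). Against the mean of those 4 depots it was 1.42 ± 0.10 in mWAT (limma adjusted p = 4.28e-08) and 0.06 ± 0.10 in iWAT (limma adjusted p = 0.745; log2 differences ± SE). The labels do not say whether 1 of those 4 depots, such as cWAT, holds the inguinal pads of mice kept in the cold, so whether that mean holds the depot of iWAT under other housing is not known.

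miR-145a-5p followed, at 49683, 37214 and 60899.7 normalized counts in mWAT 1 to 3, against 22772, 19783 and 20578 in iWAT 1 to 3, with no overlap (log2 difference 1.20 ± 0.14, limma adjusted p = 1.66e-05). miR-143-5p, the minor arm, had 2904, 2818 and 4973 in mWAT, against 1303, 1206 and 1139 in iWAT (log2 difference 1.50 ± 0.17, limma adjusted p = 1.66e-05). miR-218-5p, which lies in introns of the Slit genes, had 231, 205 and 226 in mWAT, against 104, 130.4 and 157 in iWAT (0.77 ± 0.18, limma adjusted p = 0.00447), and its call was lost when libraries were scaled to their totals (0.0697). The list of smooth muscle and mesenchyme miRNAs thus had 6 of 13 tested members higher, against 17.7% of all miRNAs, and 3 lower (15.4% of all), with 0.18 as the median log2 difference. The 6 higher were both arms of miR-143 and of miR-145a, miR-145b and miR-218-5p. Most of the 6 thus come from the 1 precursor of miR-143 and miR-145a, so this share does not count separate genes. The 3 lower members were of the miR-199 family, known from fibroblasts and other mesenchymal cells. miR-199a-5p had 16949.9, 11283 and 21135 in mWAT, against 31409.6, 26797 and 36133 in iWAT (-0.97 ± 0.26, limma adjusted p = 0.00935), and without mWAT 2, its lowest library, the adjusted p was 0.0516. miR-199b-5p had 2648, 2413 and 2889 in mWAT, against 3221, 4369 and 4500.2 in iWAT (-0.59 ± 0.15, limma adjusted p = 0.00812). miR-199b-3p differed by -0.50 ± 0.14 and lost its call without iWAT 3 (limma adjusted p = 0.0739). Without mWAT 2 and iWAT 3 the list had 6 members higher, and the calls of these 3 were lost.

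Among the Hox cluster miRNAs, miR-10b-5p, from the Hoxd cluster, was the second most abundant miRNA of the mWAT libraries, at 294632, 363027 and 261749 normalized counts in mWAT 1 to 3, against 180345, 147490.3 and 131389 in iWAT 1 to 3. All 3 mWAT values lay above all 3 iWAT values, and the mean was 2.00-fold that of iWAT (log2 difference 1.00 ± 0.20, limma adjusted p = 0.00141). Its other arm, miR-10b-3p, had 375, 358 and 393 in mWAT, against 198, 179.5 and 166 in iWAT (1.05 ± 0.22, limma adjusted p = 0.00203). miR-10a-5p, from the Hoxb cluster and 1 base different, had 126973, 171387 and 113317 normalized counts in mWAT 1 to 3, against 138703, 121734 and 111834 in iWAT 1 to 3. These values overlapped and did not pass (0.13 ± 0.17, limma adjusted p = 0.593).

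miR-196a-5p, made in the Hoxb and Hoxc clusters, went the other way, with 591, 668 and 584 normalized counts in mWAT 1 to 3, against 1109, 1127 and 1242 in iWAT 1 to 3. The groups were apart, and the mean was 1.89-fold higher in iWAT (log2 difference -0.92 ± 0.20, limma adjusted p = 0.00292). miR-196b-5p, from the Hoxa cluster and of the same seed, had 2211, 1983 and 2274 in mWAT, against 1182, 1511 and 1342 in iWAT. Its 3 mWAT values were all above the 3 iWAT values, yet it did not pass in the fit over 18 libraries (0.68 ± 0.41, limma adjusted p = 0.215), while with the 6 libraries alone the limma adjusted p was 0.00925. miR-196a-5p averaged 25.8 ± 6.2 in eWAT, 6.62 ± 2.28 in aWAT and 1152 ± 109.5 in cWAT (SD, n = 3 each) and is listed at 0 in iBAT. miR-196b-5p averaged 83.2 ± 26.4 in eWAT, 101 ± 65.4 in aWAT, 1062 ± 142 in cWAT and 4.16 ± 2.79 in iBAT. Of 7 tested Hox cluster miRNAs 2 were higher, against 17.7% of all, and 1 lower, against 15.4% of all (median log2 difference 0.31), and 2 were lower without mWAT 2.

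**Figure D3:**
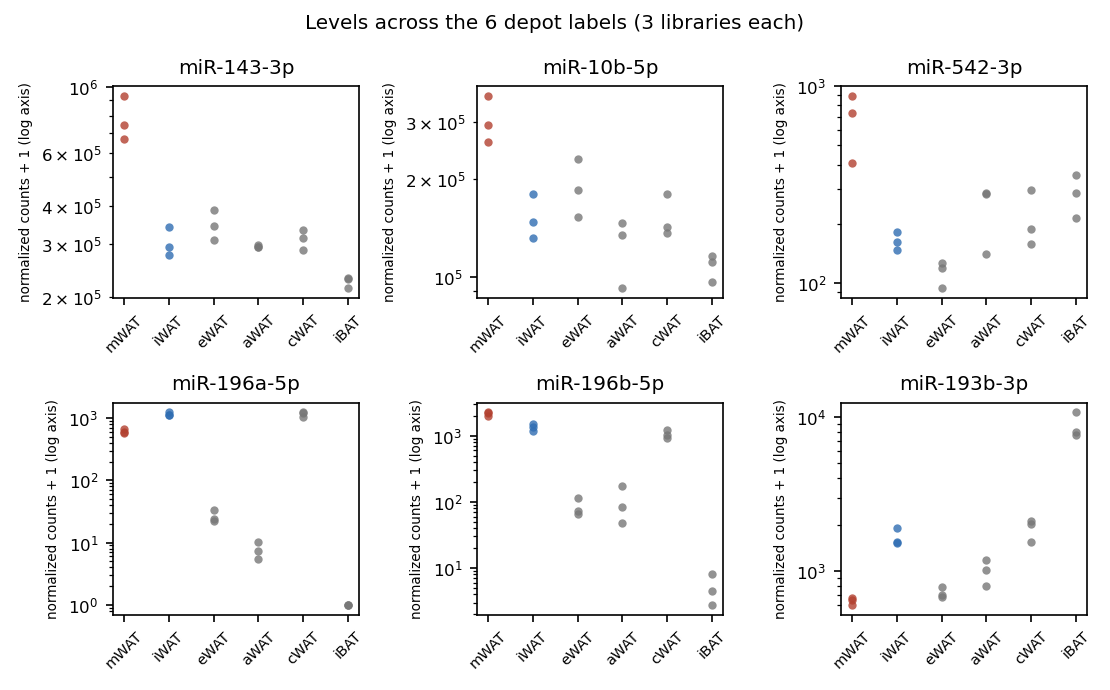
Normalized counts + 1 (log axis) of 6 miRNAs in the 18 libraries, with mWAT first, then iWAT and the 4 other depot labels, 1 point a library. miR-143-3p and miR-542-3p are highest in mWAT, miR-196a-5p is high in mWAT, iWAT and cWAT alone, and miR-193b-3p is lowest in mWAT and highest in iBAT.

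miRNAs of the imprinted Dlk1-Dio3 region, which are transcribed from the maternal chromosome only, included many that were higher in mWAT. Of 52 tested members 26 were higher, against 17.7% of all miRNAs, and 0 were lower by limma, at an unadjusted p under 0.05, by edgeR, by DESeq2 or by voom, with a median log2 difference of 0.72 against -0.0027 over all. miR-127-3p, the most abundant of them, had 12086, 16263 and 14216 normalized counts in mWAT 1 to 3, against 8555, 7162 and 8345 in iWAT 1 to 3 (log2 difference 0.82 ± 0.14, limma adjusted p = 0.000709). miR-136-3p had 2214, 2449 and 2378 in mWAT, against 983, 952 and 1114 in iWAT, with groups that did not overlap (1.21 ± 0.15, limma adjusted p = 5.58e-05). miR-541-5p had 2215, 2746 and 2544 in mWAT, against 1369, 1105 and 1270.2 in iWAT (1.00 ± 0.15, limma adjusted p = 0.000207).

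Further along the region, miR-381-3p had 372, 438 and 505 in mWAT, against 176, 169 and 216 in iWAT (1.22 ± 0.13, limma adjusted p = 1.66e-05), and miR-411-5p had 439.6, 478 and 512 in mWAT, against 212, 179.5 and 239 in iWAT (1.18 ± 0.13, limma adjusted p = 1.66e-05). miR-495-3p had 85.6, 90.5 and 83.2 in mWAT, against 30.3, 32.3 and 37.4 in iWAT (1.35 ± 0.20, limma adjusted p = 0.000207). Each of these kept its mWAT values above its iWAT values. miR-379-5p had 835, 756 and 1027 in mWAT, against 677, 577 and 556 in iWAT (0.53 ± 0.13, limma adjusted p = 0.00587), and its call was lost when libraries were scaled to their totals (0.12). miR-300-3p had 291, 382 and 431 in mWAT, against 240.4, 258 and 268 in iWAT (0.51 ± 0.16, limma adjusted p = 0.0252), and its call was lost without any 1 of mWAT 2, mWAT 3, iWAT 1 or iWAT 2 (limma adjusted p 0.0727, 0.116, 0.0762 and 0.0579). Neither of them overlapped between the groups. Hairpins no more than 10 kb apart fell into 2 groups there. The group at chr12:109572004-109595387 had 7 of 14 tested members higher and that at chr12:109709065-109743784 had 17 of 32. Summed over the 57 members in the table, the level was 24019 to 29069.7 normalized counts in mWAT and 13819 to 15800.3 in iWAT. The list had 17 to 29 members higher and 0 lower over the 23 settings, 19 of them when libraries were scaled to their totals and 17 without mWAT 2 and iWAT 3. In the other depots miR-381-3p averaged 197 ± 9.28 in eWAT, 288 ± 9.11 in aWAT, 212 ± 15.9 in cWAT and 254 ± 16.8 in iBAT (SD, n = 3 each), below the 372 of the lowest mWAT library.

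On the X chromosome, miRNAs of the miR-322-503 cluster, known for slowing the cell cycle and for their part in muscle differentiation, were mostly lower in mWAT. Of 9 tested members 6 were lower, against 15.4% of all, 1 was higher and 2 did not pass (median log2 difference -0.84). miR-322-5p had 1076, 1064 and 737 normalized counts in mWAT 1 to 3, against 1651, 2034 and 1822 in iWAT 1 to 3 (log2 difference -0.95 ± 0.19, limma adjusted p = 0.00152), and miR-322-3p, from the same hairpin, had 1460.3, 1694 and 1365 in mWAT, against 3085, 2709 and 2322 in iWAT (-0.84 ± 0.15, limma adjusted p = 0.000859). miR-503-3p had 149, 137 and 121 in mWAT, against 407, 276 and 237 in iWAT (-1.14 ± 0.20, limma adjusted p = 0.000736). miR-503-5p was low, with 18.7, 13.6 and 18.4 in mWAT, against 56.4, 41.3 and 34.2 in iWAT (-1.31 ± 0.31, limma adjusted p = 0.0052). None of these 4 overlapped between the groups.

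miR-542-3p was the member that was higher, with 731, 896 and 404 normalized counts in mWAT 1 to 3, against 159, 181 and 145 in iWAT 1 to 3. The lowest mWAT value was above the highest iWAT value, and the mean was 4.18-fold that of iWAT (log2 difference 1.99 ± 0.33, limma adjusted p = 0.000428). Its hairpin and those of miR-322 and miR-503 lie at chrX:53048044-53054327 on the minus strand. In the other depots miR-542-3p averaged 112 ± 17.3 in eWAT, 236 ± 83.7 in aWAT, 213 ± 72.6 in cWAT and 283 ± 69.3 in iBAT (SD, n = 3 each). The cluster had 5 to 7 members lower and 1 higher over the 23 settings.

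Among tested miRNAs placed on 1 chromosome, and against 17.7% higher and 15.4% lower of all tested, 29 of 62 on chromosome 12 were higher and 1 lower, and 3 of 45 on the X chromosome were higher and 11 lower. Most of these are cluster members counted elsewhere. The 2 Dlk1-Dio3 groups hold 7 and 17 of the 29 higher on chromosome 12. On the X chromosome, chrX:53048044-53054327 holds 5 of the 11 lower and chrX:7237695-7248440 holds 3. On chromosome 13, 6 of 14 were higher and 2 lower, on chromosome 14, 5 of 9 were lower, and on chromosome 19, 3 of 6 were lower. Where both arms were tested and were paired by name in RefSeq, in 124 hairpins, both arms were called in 16. In 9 both arms were higher, in 7 both were lower, and 1 arm alone was called in 44. Hairpins not paired this way, such as those of miR-143 and miR-145a, are not in these counts. Among those left out, miR-30d-3p was called higher and miR-30d-5p lower. miR-30d-3p lost its call without mWAT 1 (limma adjusted p = 0.0855), mWAT 2 (0.218), iWAT 1 (0.0817), iWAT 2 (0.167) or iWAT 3 (0.0691).

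**Figure D4:**
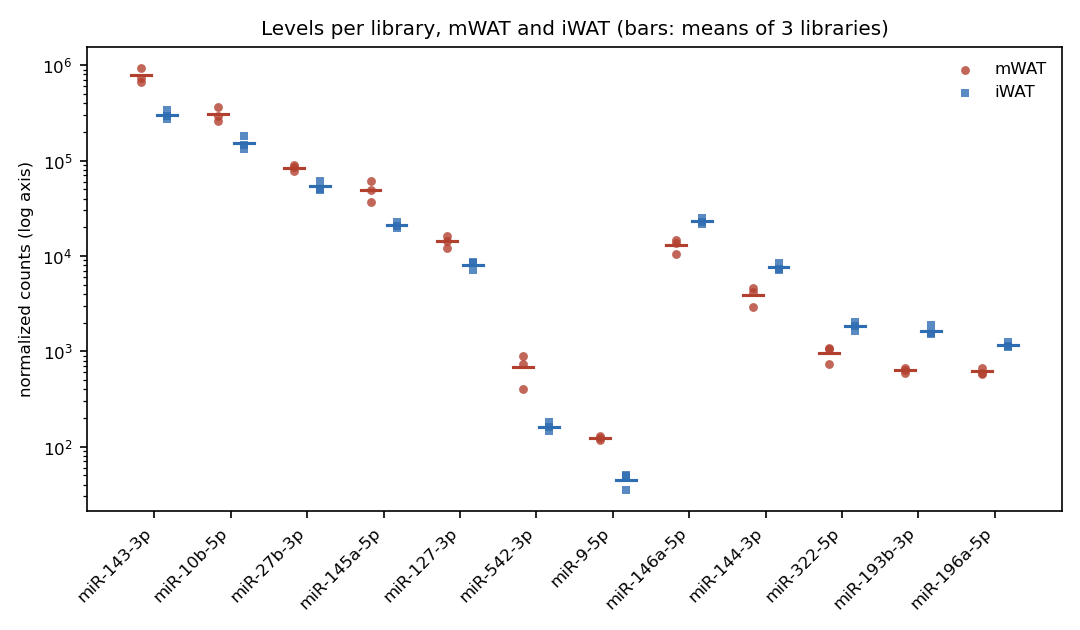
Normalized counts (log axis) of 12 miRNAs in each library, with mWAT as circles left of iWAT as squares and bars at the means of 3 libraries. In each of the 12 the mWAT and iWAT points do not overlap; the 7 on the left are higher in mWAT and the 5 on the right lower.

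Of 28 tested miRNAs tied to brown and beige adipocytes 6 were lower and 0 higher by limma (median log2 difference -0.32). The share lower was near the 15.4% of all tested miRNAs, and none higher stood against 17.7% of all. Higher ones numbered 4 at an unadjusted p under 0.05, 1 by edgeR, 1 by DESeq2 and 2 by voom. The number lower was 3 without iWAT 2 and 5 without mWAT 2 and iWAT 3, and it ran from 3 to 11 over the settings. miR-193b-3p, known in mouse to promote brown adipocyte formation, had 641, 664 and 598 normalized counts in mWAT 1 to 3, against 1509, 1889 and 1537 in iWAT 1 to 3. The groups were far apart, the mean being 2.59-fold higher in iWAT (log2 difference -1.37 ± 0.17, limma adjusted p = 3.17e-05). Its level was 8846 ± 1695 in iBAT and 715 ± 56.4 in eWAT (SD, n = 3 each). miR-30c-1-3p, the minor arm of a miR-30 hairpin, had 9.83, 12.1 and 17.3 in mWAT, against 35.2, 41.3 and 38.5 in iWAT (-1.52 ± 0.28, limma adjusted p = 0.000917).

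miR-378a-3p, from an intron of Ppargc1b and abundant in brown fat, had 13159, 14551 and 13442 normalized counts in mWAT 1 to 3, against 20084, 23077 and 17233 in iWAT 1 to 3. The values did not overlap (-0.54 ± 0.19, limma adjusted p = 0.0364), but the call was lost without any 1 of the mWAT libraries (0.0961, 0.0569 and 0.0842 by limma without mWAT 1, 2 and 3), without iWAT 1 (0.0773) and without iWAT 2 (0.146). Both groups were far below iBAT, at 225948 ± 22687 (SD, n = 3). miR-455-3p, described as a promoter of brown adipogenesis, had 453, 409 and 543 in mWAT, against 247, 191 and 257 in iWAT. Its values did not overlap and did not pass (1.02 ± 0.38, limma adjusted p = 0.0534; 0.0415 by edgeR and 0.02 by DESeq2).

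Of 19 tested miRNAs described as opposing browning or adipocyte formation 4 were higher and 3 lower (median log2 difference 0.09), shares near the 17.7% and 15.4% of all tested miRNAs. Without mWAT 2 and iWAT 3 the counts were 3 and 1. miR-27b-3p, described in mouse as a repressor of Prdm16 and of adipocyte formation, had 76915, 86609 and 89567 normalized counts in mWAT 1 to 3, against 61134, 50604 and 49414 in iWAT 1 to 3, without overlap (0.65 ± 0.11, limma adjusted p = 0.000709). miR-23b-3p, from the same cluster, had 6765, 6553 and 7505 in mWAT, against 4827, 4676 and 4163 in iWAT (0.61 ± 0.10, limma adjusted p = 0.000367). miR-34a-5p, which rises in obese fat and with p53 activity, had 517, 682 and 595 in mWAT, against 274, 351 and 398 in iWAT (0.82 ± 0.20, limma adjusted p = 0.00584), a call that was lost when libraries were scaled to their totals (0.0652). Of the 10 tested miRNAs of the miR-23-27-24 clusters 5 were higher, against 17.7% of all, and 0 lower by limma, and likewise 0 were lower at an unadjusted p under 0.05, by edgeR, by DESeq2 and by voom, but scaled to totals 2 were higher and 2 lower. The number higher was 2 without mWAT 3 or iWAT 3 and 3 without mWAT 1, mWAT 2 or iWAT 2.

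Among the adipocyte and insulin response miRNAs, 6 of 30 were higher and 6 lower (median log2 difference -0.16), shares near the 17.7% and 15.4% of all tested miRNAs. Without mWAT 1 the number lower was 3, and without mWAT 2 and iWAT 3 the counts were 4 and 3. The higher ones include both arms of miR-143 and of miR-145a, which this list shares with the smooth muscle list. miR-148a-3p, known to promote adipogenesis, had 37216, 44236 and 33918 normalized counts in mWAT 1 to 3, against 55974, 49302 and 49605 in iWAT 1 to 3 (-0.43 ± 0.10, limma adjusted p = 0.00535). miR-103-3p, known from insulin sensitivity in liver and fat, had 4805, 4600.3 and 5826 in mWAT, against 6865, 7296 and 6819 in iWAT (-0.47 ± 0.14, limma adjusted p = 0.0197) and lost its call without mWAT 1 (0.0663), mWAT 2 (0.0727) or iWAT 2 (0.0643). Of 14 tested endothelial miRNAs 2 were lower, near the 15.4% of all, and 0 higher by limma, against 17.7% of all (median log2 difference 0.05). At an unadjusted p under 0.05, 1 was higher. The 2 lower ones were miR-139-5p (-0.52) and miR-92a-3p, given below. miR-126a-3p, the abundant endothelial miRNA, had 122744, 144291 and 105593 in mWAT, against 140872, 123612 and 118833 in iWAT, with overlapping values (-0.05 ± 0.13, limma adjusted p = 0.803).

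Of 17 tested members of the miR-17-92 cluster and its paralogues, which are tied to cell growth, 6 were lower and 0 higher by limma (median log2 difference -0.52), against 15.4% lower and 17.7% higher of all tested miRNAs. The number lower was 2 without iWAT 2, 3 without iWAT 3, 2 without mWAT 2 and iWAT 3, and 2 to 9 over the settings. miR-20a-5p had 434, 435 and 425 normalized counts in mWAT 1 to 3, against 633, 808 and 676 in iWAT 1 to 3 (-0.70 ± 0.13, limma adjusted p = 0.0011), and miR-92a-3p had 4113, 4944 and 4112 in mWAT, against 7921, 7588 and 6577 in iWAT (-0.75 ± 0.16, limma adjusted p = 0.00268). In both the groups did not overlap. The miR-15 and miR-16 family, known for restraining the cell cycle, had 6 of 12 lower, against 15.4% of all, and 0 higher by limma (median log2 difference -0.39), with 3 lower without mWAT 3 and 3 without mWAT 2 and iWAT 3. The 6 include both arms of miR-322, which were already counted in the X-linked cluster. In each of these settings the 3 that stayed lower were both miR-322 arms and miR-15b-5p. For both families 0 were higher at an unadjusted p under 0.05, by edgeR, by DESeq2 and by voom. miR-15b-5p had 941, 1068 and 843 in mWAT, against 1480.3, 1459 and 1436 in iWAT (-0.62 ± 0.16, limma adjusted p = 0.00742). miR-16-5p had 7049, 7025 and 6141 in mWAT, against 8718, 9903 and 10006 in iWAT (-0.50 ± 0.15, limma adjusted p = 0.0151), and lost its call without mWAT 3 (0.0589), iWAT 2 (0.0517) or iWAT 3 (0.0529). Neither overlapped between the groups. Of 21 tested let-7 and miR-98 miRNAs, which mark differentiated cells, 5 were lower, against 15.4% of all, and 1 higher, against 17.7% of all (median log2 difference -0.06), with 2 lower and 1 higher without mWAT 2 and iWAT 3. let-7g-5p had 29390.2, 30047 and 34683 in mWAT, against 43301, 43726 and 40094 in iWAT (-0.44 ± 0.12, limma adjusted p = 0.00888). The single higher one, let-7d-3p, lost its call when libraries were scaled to their totals (0.309). The miR-29 family had 0 of 6 called in either direction by limma, at an unadjusted p under 0.05, by edgeR, by DESeq2 or by voom (median log2 difference 0.20).

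Of 18 tested lymphoid and myeloid miRNAs 6 were lower in mWAT, against 15.4% of all tested miRNAs, and 0 higher by limma (median log2 difference -0.80), with 3 lower without iWAT 2 and 4 without mWAT 2 and iWAT 3. For these and the red blood cell miRNAs, 0 were higher at an unadjusted p under 0.05, by edgeR, by DESeq2 and by voom. The summed level of the lymphoid and myeloid list, 94021 to 124569 normalized counts over mWAT libraries, lay below the 143858 to 192416 over iWAT libraries. Most of the sum in each library was miR-21a-5p, which was not called and whose values overlapped between the groups. miR-146a-5p, a brake on NF-kB signalling, had 10502, 14845 and 13833 normalized counts in mWAT 1 to 3, against 24778, 22619 and 21726 in iWAT 1 to 3 (-0.83 ± 0.15, limma adjusted p = 0.000812). miR-146b-5p had 4135, 6998 and 5494 in mWAT, against 9211, 9023 and 10714 in iWAT (-0.83 ± 0.20, limma adjusted p = 0.00574). Neither overlapped between the groups.

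miR-142a-5p, made in blood-forming cells, had 5549, 6946 and 5623 normalized counts in mWAT 1 to 3, against 12564, 20584 and 10272 in iWAT 1 to 3 (-1.20 ± 0.35, limma adjusted p = 0.015), with iWAT 2 the highest, and without iWAT 2 the limma adjusted p was 0.0821. miR-511-3p, from an intron of the macrophage gene Mrc1, had 35.4, 33.2 and 47.5 in mWAT, against 81.1, 115 and 99.4 in iWAT (-1.33 ± 0.33, limma adjusted p = 0.00605). miR-223-3p, of neutrophils and other myeloid cells, had 708, 788 and 749 in mWAT, against 676, 834 and 1033 in iWAT, with overlap (-0.16 ± 0.16, limma adjusted p = 0.47), and miR-155-5p, of activated immune cells, had 148, 152 and 145 in mWAT, against 178, 232 and 141 in iWAT (-0.28 ± 0.33, limma adjusted p = 0.534). Immune cell numbers were not measured, and their part in these differences was not tested.

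Of 7 red blood cell miRNAs 3 were lower, against 15.4% of all tested miRNAs, and 0 higher by limma (median log2 difference -0.49), with 1 lower without mWAT 3 or iWAT 2 and 2 without mWAT 2 and iWAT 3. miR-144-3p had 4662, 4157 and 2920.1 normalized counts in mWAT 1 to 3, against 7281, 8482 and 7178 in iWAT 1 to 3, without overlap (-0.99 ± 0.23, limma adjusted p = 0.00502). miR-451a, which lies beside miR-144 and is the main miRNA of red cells, had 6759, 6839 and 4701 in mWAT, against 8298, 9452 and 7756 in iWAT and did not pass (-0.49 ± 0.22, limma adjusted p = 0.106). The list summed to 16021 to 22070.5 normalized counts over mWAT libraries and to 27936.6 to 31298.5 over iWAT libraries, so it was lower in the same libraries as the immune list, and its part in that result was not tested.

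Of 15 tested nerve miRNAs 3 were higher and 3 lower (median log2 difference -0.10), shares near the 17.7% and 15.4% of all tested miRNAs, with 4 and 2 without mWAT 2 and iWAT 3. miR-9-5p, of neurons, had 117, 129.8 and 123 normalized counts in mWAT 1 to 3, against 48.6, 50.4 and 35.3 in iWAT 1 to 3, and the groups were apart (1.46 ± 0.23, limma adjusted p = 0.000367). miR-137-3p, also of neurons, had 35.4, 18.1 and 47.5 in mWAT, against 4.23, 9.04 and 3.21 in iWAT (2.42 ± 0.59, limma adjusted p = 0.00545). miR-219a-5p, of myelin-forming glia, had 43.3, 31.7 and 43.2 in mWAT, against 71.9, 152 and 110.1 in iWAT (-1.43 ± 0.27, limma adjusted p = 0.0011), and miR-338-3p, of the same cells, had 582, 589.9 and 530.2 in mWAT, against 895, 989 and 1079 in iWAT (-0.80 ± 0.17, limma adjusted p = 0.00251). miR-9-3p, the other arm of miR-9, was the third higher member (1.39 ± 0.25, limma adjusted p = 0.000868). miR-129-5p, of neurons, was the third lower one, with 7.87, 9.05 and 18.4 in mWAT, against 16.9, 27.1 and 27.8 in iWAT (-1.02 ± 0.36, limma adjusted p = 0.0416), and its values overlapped. It lost its call without mWAT 1 (0.151), mWAT 2 (0.118), iWAT 2 (0.129) or iWAT 3 (0.116). Of 4 tested pancreas miRNAs 1 was higher, against 17.7% of all, and 1 lower, against 15.4% of all (2 higher and 1 lower by edgeR and by DESeq2). miR-216a-5p, of the acinar pancreas, was low but higher in mWAT, with 17.7, 16.6 and 19.4 in mWAT, against 4.23, 0 and 0 in iWAT (3.44 ± 0.78 on the log2(normalized count + 1) scale, limma adjusted p = 0.00377). The lower one was miR-7a-1-3p (log2 difference -0.77), which lost its call without any 1 mWAT library (limma adjusted p 0.0508, 0.0655 and 0.0514), iWAT 2 (0.064) or iWAT 3 (0.108). miR-7a-5p (0.19) and miR-375-3p were not called.

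miR-183-5p, of sensory and stratified epithelia, had a log2 difference further below 0 than any other called miRNA, with 46.2, 167 and 88.6 normalized counts in mWAT 1 to 3, against 442, 344 and 708 in iWAT 1 to 3 (-2.42 ± 0.58, limma adjusted p = 0.00523). It was 2196 ± 865 in iBAT and 107 ± 46.5 in eWAT (SD, n = 3 each). Its cluster partner miR-96-5p had 54.1, 241 and 51.8 in mWAT, against 172, 306 and 741 in iWAT, with overlap (-1.93 ± 0.66, limma adjusted p = 0.0354), and lost its call without mWAT 1 (0.129), mWAT 3 (0.136), iWAT 2 (0.0699) or iWAT 3 (0.15).

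**Figure D5:**
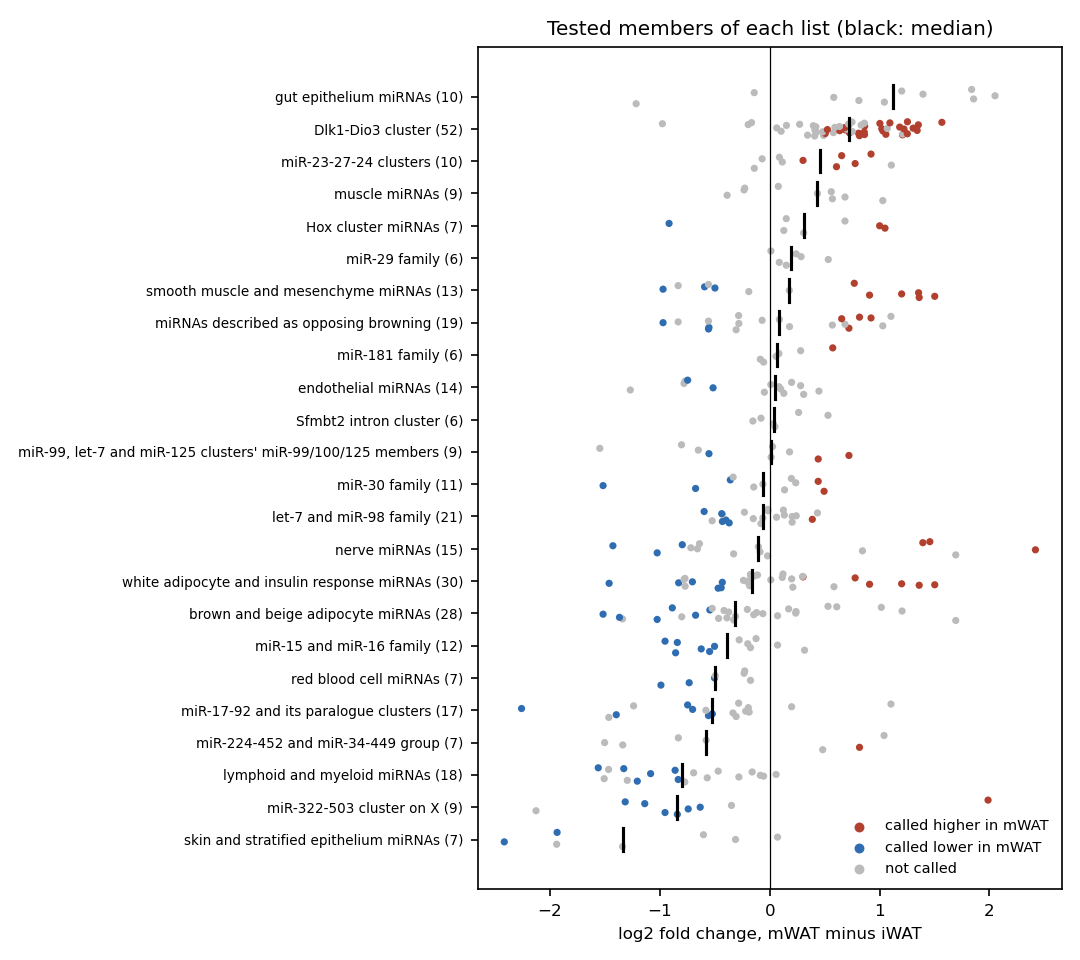
Log2 fold change of mWAT over iWAT for each tested member of the lists with at least 5 tested members, 1 point a miRNA, with the number tested in parentheses and the median as a black bar. Dlk1-Dio3 miRNAs lie mostly right of 0 with 26 called higher, and the miR-322-503 cluster lies left of 0 with miR-542-3p alone at the right.

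The 2 largest called increases, of miR-6238 and miR-6538, were among late-annotated miRNAs, whose names carry numbers of 1000 or above and whose roles are mostly not known, a grouping chosen after the values were seen. Of 41 tested 14 were higher, against 17.7% of all tested miRNAs, and 4 lower, against 15.4% of all. miR-6238 had 284, 403 and 225 normalized counts in mWAT 1 to 3, against 1.41, 24.5 and 16 in iWAT 1 to 3 (log2 difference 4.87 ± 1.01, limma adjusted p = 0.00203), and miR-6538 had 519, 1133 and 408 in mWAT, against 11.3, 54.2 and 39.6 in iWAT (4.37 ± 0.78, limma adjusted p = 0.000809). miR-3968 had 1111, 1282 and 644 in mWAT, against 228, 219.5 and 196 in iWAT (2.18 ± 0.23, limma adjusted p = 1.66e-05). The groups did not overlap in these 3, and mWAT 2 was the highest library in each. Among the 14 higher ones mWAT 2 was the highest mWAT library in 12 (85.7%), against 19 of 63 (30.2%) among higher miRNAs with lower numbers. Without mWAT 2 the log2 difference was 4.64 for miR-6238, 3.93 for miR-6538 and 1.98 for miR-3968 (limma adjusted p 0.00892, 0.00412 and 7.40e-05). In that setting miR-1195 (limma adjusted p = 0.0533), miR-1981-3p (0.0736) and miR-3068-3p (0.218) among the higher ones lost their calls. Among the lower ones miR-1839-5p (0.0503), miR-1843b-5p (0.0724) and miR-3535 (0.0666) lost theirs. miR-1247-5p, on chromosome 12, had 205, 250.5 and 204 in mWAT, against 33.1, 46.5 and 43.8 in iWAT (2.40 ± 0.38, limma adjusted p = 0.000367).

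In the make-up of the libraries, the gains in share were led by miR-143-3p and miR-10b-5p, which took 10.5% ± 2.0 of mWAT libraries against 6.10% ± 0.65 of iWAT libraries (SD, n = 3 each). Among the 5 largest losses, miR-99a-5p had 55108, 16089.7 and 89721 normalized counts in mWAT 1 to 3, against 128199, 122903 and 125712 in iWAT 1 to 3 and did not pass (-1.55 ± 0.63, limma adjusted p = 0.0719), with mWAT 2 far below the rest, and miR-21a-5p, of injury and fibrosis, had 67764, 66711 and 95979 in mWAT, against 93953, 133756 and 145642 in iWAT (-0.69 ± 0.34, limma adjusted p = 0.137). miR-191-5p had 35145, 24236 and 40125 in mWAT, against 60656, 50949 and 49742 in iWAT (-0.72 ± 0.20, limma adjusted p = 0.0114) and lost its call without mWAT 2 (0.0633). let-7c-5p took 1.93% ± 0.036 of mWAT libraries and 2.98% ± 0.15 of iWAT libraries (SD, n = 3 each), with a log2 difference of -0.40 ± 0.10 (limma adjusted p = 0.00636). Of the 10 most abundant miRNAs, miR-10a-5p, miR-26a-5p, miR-30a-5p, miR-125a-5p and miR-126a-3p were not called either, with log2 differences of 0.13, -0.14, 0.14, 0.01 and -0.05.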

How the data were processed

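Small RNA was sequenced from whole fat depots, with TRIzol and RNeasy extraction and the TruSeq Small RNA kit, per the labels' protocols. The authors deposited normalized counts, a signal equal to reads divided by 1 size factor per library. The submitters' processing notes name kallisto 0.45.0, Novoalign, DESeq and DESeq2 and the builds GRCm38 and mm10, without saying which step each served, and for the small RNA reads the aligner is not given in those sources. All values came back as whole reads within 0.02 of a read.

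The test was limma 3.58.1 (R 4.3.3; eBayes with trend) on log2(normalized count + 1), with all 18 libraries of 6 depots in 1 fit (12 residual degrees of freedom), the contrast mWAT minus iWAT, Benjamini-Hochberg adjustment over 436 miRNAs, and edgeR's filterByExpr on recovered reads. A fold change on this scale understates the change of low miRNAs. Contrasts of either depot with the mean of the other 4 used the same fit. edgeR 4.0.16 and DESeq2 1.42.0 on recovered reads, other scalings, filters and pseudocounts and each library left out were alternatives.

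The comparison and the 26 lists were chosen with earlier results of these data known. miRNAs were named if they were among the 12 largest called changes in either direction with non-overlapping groups and a mean of at least 100, the 10 most abundant, the 5 largest gains or losses in share, or list members. miRNAs outside this rule were named after their values were seen, and that is said where they are named.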

Additional observations from a re-analysis of the deposited data

How the results depend on the processing

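None of the 144 calls changed direction in any alternative run, and 79 of them were called in each alternative that kept them. Leaving out each library in turn gave 61 to 68 higher and 44 to 63 lower, the fewest lower without iWAT 2, and 89 of the 144 were called each time. Scaling to library totals gave 54 higher and 108 lower (33.3% of calls higher, against 53.5%) and moved the median of all miRNAs by -0.23, but totals without miR-143-3p gave 77 higher and 50 lower, a setting chosen after seeing the data. So were leaving out mWAT 2 and iWAT 3 together (57 higher, 44 lower) and testing only miRNAs numbered below 1000 (62 higher, 63 lower). edgeR called 85 higher and 64 lower, DESeq2 82 and 70 with 2 adjusted p not given, and voom 85 and 59. The 6 libraries alone gave 75 and 65 of 386 tested, and a mean of at least 50 gave 56 and 63 of 280. miR-215-5p, not called at 1.20, ranged from -1.41 (without mWAT 2) to 2.78 (without mWAT 3) as single libraries were left out, and was -1.64 without mWAT 2 and iWAT 3 (limma adjusted p = 0.0242 without mWAT 2 and 0.0199 without both). The cause of these changes was not tested. Deviations from the depot mean correlated at 0.19, -0.27 and -0.36 between the mWAT and iWAT libraries of replicate numbers 1 to 3. With 3 libraries a depot and mWAT 2 apart, these values cannot decide whether libraries of 1 number are paired, and the labels do not say. With the replicate block 76 were higher and 66 lower. Depth limits miRNAs at low levels, where 3 reads were worth 2.11 to 4.53 normalized counts in these libraries.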

Other observations

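Several miRNAs outside the lists also differed, and they were chosen after their values were seen. miR-140-3p, best known from cartilage, had 4568, 4271 and 4795 normalized counts in mWAT 1 to 3, against 2753, 2407 and 2118 in iWAT 1 to 3, without overlap (log2 difference 0.91 ± 0.10, limma adjusted p = 1.66e-05). miR-7b-5p, of pituitary and hypothalamus, had 53.1, 67.9 and 132 in mWAT, against 4.23, 2.58 and 5.35 in iWAT (4.01 ± 0.76, limma adjusted p = 0.00112), and it averaged 1.14 ± 1.97 in eWAT and 8.05 ± 2.94 in iBAT (SD, n = 3 each). miR-490-3p, from an intron of the muscarinic receptor gene Chrm2, had 28.5, 45.3 and 177 in mWAT, against 14.1, 0 and 17.1 in iWAT (3.27 ± 1.06, limma adjusted p = 0.028), with mWAT 3 the highest, and lost its call without mWAT 3 (0.121) or iWAT 2 (0.149).

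A pair of neighbours in the imprinted Gnas region of chromosome 2, also chosen after their values were seen, was higher in mWAT at low levels. miR-298-5p had 33.4, 36.2 and 28.1 normalized counts in mWAT 1 to 3, against 7.05, 2.58 and 4.28 in iWAT 1 to 3 (2.65 ± 0.65, limma adjusted p = 0.00574), and miR-296-5p had 22.6, 18.1 and 18.4 in mWAT, against 3.52, 0 and 5.35 in iWAT (2.75 ± 0.66, limma adjusted p = 0.00543). miR-298-5p averaged 32.7 ± 16.6 in eWAT, 14.9 ± 12.2 in aWAT and 3.07 ± 2.7 in cWAT (SD, n = 3 each) and is listed at 0 in iBAT. On the X chromosome, miRNAs of the Clcn5 intron at chrX:7237695-7248440 were also chosen after their values were seen. Of 8 tested members matched by name in RefSeq 3 were lower, against 15.4% of all tested miRNAs. miR-532-5p, from a hairpin of this group, is not among the 8 and was called lower as well. It lost that call without mWAT 1 (limma adjusted p = 0.0961), mWAT 3 (0.0845), iWAT 2 (0.0963) or iWAT 3 (0.0848). miR-501-3p had 647, 459 and 1118 in mWAT, against 1960.4, 1749 and 1813 in iWAT (-1.41 ± 0.28, limma adjusted p = 0.00141), and miR-500-3p had 114, 129.8 and 129 in mWAT, against 188, 253 and 238 in iWAT (-0.85 ± 0.20, limma adjusted p = 0.005).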
